A study of Mus musculus with 54 samples.

Results

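All mice exposed to diisononyl phthalate (DINP), whatever the dose, were set against the unexposed controls to find the liver genes that moved the same way at every dose. The 40 exposed mice were the 13 given 1.5, the 13 given 15 and the 14 given 150 mg/kg bw/d, and the 14 control mice completed the 54 mice of the series. All were male WT mice of the C57BL/6J strain that ate a high-fat diet (HFD) from an age of 8 weeks, and the treatment, DINP in a gelatin pellet or a placebo pellet for the controls, lasted 20 weeks. RNA of the medial liver lobe was read with QuantSeq, which sequences the 3′ ends of polyadenylated transcripts, so 1 value per gene and mouse summarises all of its isoforms that share a 3′ end. The pooled contrast was the mean of the 3 dose groups minus control, with each dose weighted equally. The 3 dose contrasts share the 14 control mice, so an unusual control mouse moves all of them the same way. No group was left on a standard diet in these libraries, and every comparison is within HFD-fed mice.

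DINP is a plasticizer that is hydrolysed in the gut and liver to monoesters. Phthalate monoesters bind peroxisome proliferator-activated receptors (PPARs), and PPARα is the nuclear receptor that drives fatty acid oxidation genes in hepatocytes. Ehhadh and the Cyp4a genes are classic targets of that receptor in mouse liver. Amino acid supply is read in liver cells at the lysosome surface, where the Rag GTPases hold the growth kinase mTORC1.

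The values were TPM that the authors had rounded and scaled between mice (normalised values below), and their depth is unknown. Of 20162 rows, the 11431 with a mean of at least 1 were tested with limma on log2(value + 1), and all log2FC are on that scale, which understates the change of low genes. Defining hepatocyte markers were present in all mice, with 8 of 9 in the table and summed values of 26250 to 48890. Of the marker lists for cell types other than hepatocytes, from Kupffer cells to adipocytes, none had a gene called in the pooled contrast, with between 1 and 12 tested markers in a list. Over all tested rows 1.07% were called, so these counts of 0 are a description only. In bulk tissue, fewer cells of a type and less RNA per cell cannot be told apart.

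Some libraries stood apart from the rest. In 8 of them (control replicate 1, replicates 4 to 9 at 15 mg/kg bw/d and replicate 10 at 150 mg/kg bw/d) the cytosolic ribosomal protein genes summed to 18282 to 24904, against 11614 to 16539 in the other 46. Their small nucleolar RNA (snoRNA) genes summed to 1833 to 3744, against 3156 to 12123. A further measure, the median correlation with the other mice of the group, was below 0.94 in 5 libraries (control replicate 8 and replicates 5 to 8 at 15 mg/kg bw/d), and control replicate 8 also had the lowest total of all, 747258. Calls of named genes that were lost without the 8 libraries are given beside the gene or together after the genes, and the part of their RNA composition in any result was not tested.

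**Figure D1:**
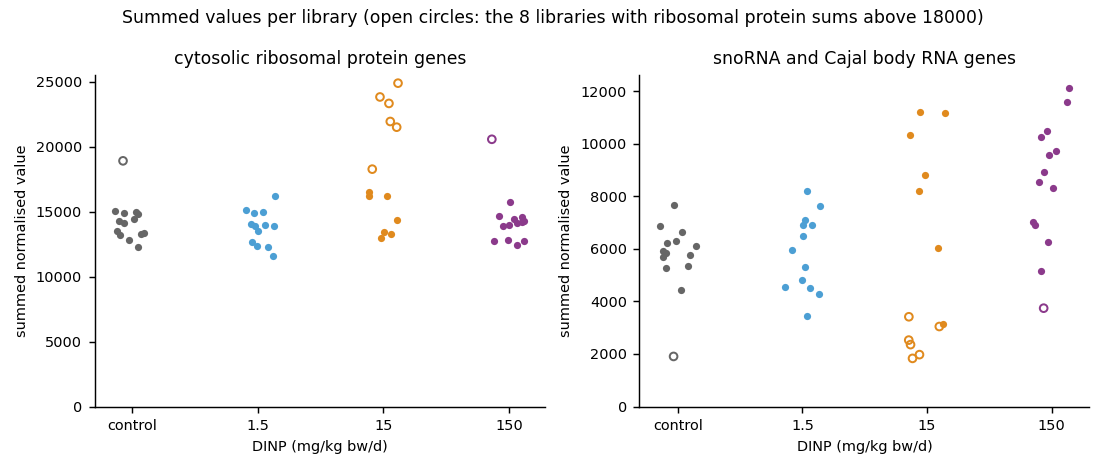
Summed normalised values of the cytosolic ribosomal protein genes (left) and of the snoRNA and Cajal body RNA genes (right) in each of the 54 libraries, by DINP dose in mg/kg bw/d, with open circles for the 8 libraries above 18000 in the left panel. Of these 8, 6 are from the group given 15 mg/kg bw/d, and all 8 lie between 1833 and 3744 in the right panel.

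In the pooled contrast 122 rows, 1.07% of those tested, had an adjusted p under 0.05 and are referred to as called. Of these, 61 (0.534%) were higher and 61 (0.534%) lower in exposed mice. At an unadjusted p under 0.05 the count was 1424 (12.5%). A log2FC beyond 0.5 as well, the threshold for a differentially expressed gene (DEG), left 12 higher (0.105%) and 5 lower (0.0437%). The median pooled log2FC over all tested rows was 0.000815. The number of calls depended on single control mice: without control replicate 8, 35 genes were higher, and without control replicate 12, 38 were lower.

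A gene was taken as moved at every dose when it was called in the pooled contrast and each of the 3 doses differed from control in the same direction with an unadjusted p under 0.05. This held for 42 genes (0.367%), 20 higher (0.175%) and 22 lower (0.192%). Irrespective of the pooled call, 94 rows (0.822%) had an unadjusted p under 0.05 in 1 direction at all doses. By the stricter intersection-union test, in which the largest of the 3 p-values of a gene is adjusted over all rows, no row passed (0%) with limma, and the lowest adjusted p was 0.401, shared by Rraga, Laptm4a, Aldh9a1 and Rpl17. The 3 contrasts differed in their own yield, with 137 rows (1.2%) at an adjusted p under 0.05 for 1.5, 1621 (14.2%) for 15 and 248 (2.17%) for 150 mg/kg bw/d. The count of genes moved at every dose was 15 higher without control replicate 8 and 32 higher without replicate 7 of 15 mg/kg bw/d.

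**Figure D2:**
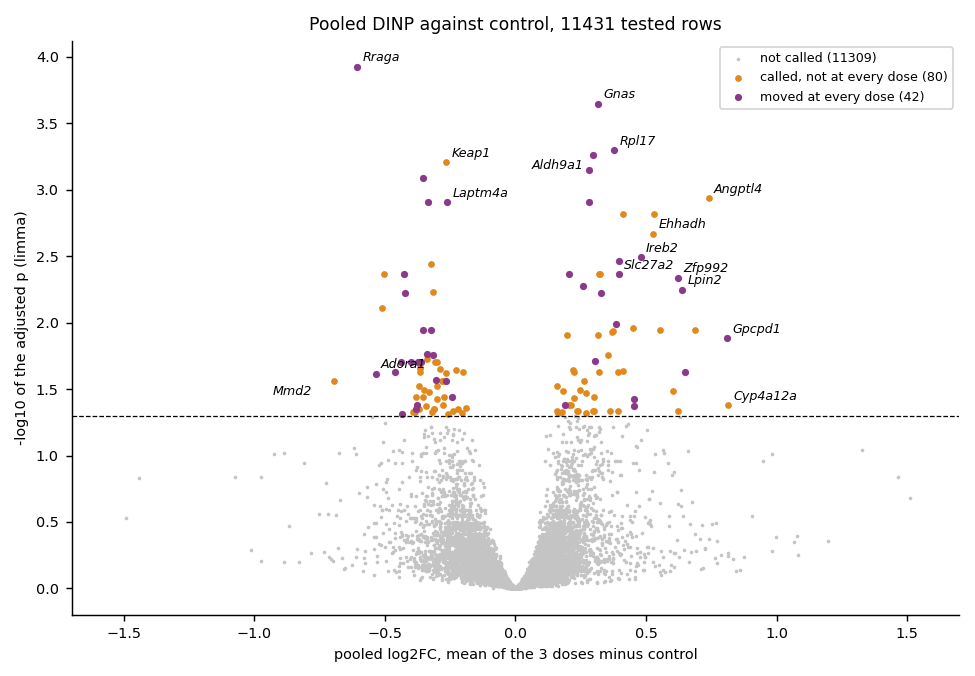
Pooled log2FC (x axis, mean of the 3 doses minus control) against −log10 of the limma adjusted p (y axis) for the 11431 tested rows, with the threshold of 0.05 as a dashed line. The 42 genes moved at every dose reach from the threshold up to Rraga, the highest point, and most of the 122 called genes lie within 0.5 of 0.

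The 42 genes had small changes, not all of equal size at each dose. Their pooled log2FC had a median size of 0.374 and ran from 0.19 to 0.808, and 6 were beyond 0.5. In each of them the ranges of exposed and control mice overlapped. Between 33 and 40 of the 40 exposed mice (median 36) were nevertheless on the changed side of the control median. At the lowest values, which take whole steps of about 1 scaled between mice, these counts include mice at the same step as the control median. For Zfp992 the control median was 0.983 and the median at 150 mg/kg bw/d 1.05, both of them 1 step. The largest of the 3 dose differences fell at 1.5 mg/kg bw/d for 10 genes, at 15 for 22 and at 150 for 10. Among the 20 higher genes it was at 150 mg/kg bw/d for 8 and at 15 for 8, and among the 22 lower genes at 15 for 14 and at 150 for 2. Without the 8 libraries, 6 of which are from the 15 mg/kg bw/d group, the lower genes had it at 1.5 for 10, at 15 for 7 and at 150 for 5, and the higher genes at 1.5 for 5, at 15 for 9 and at 150 for 6. A moderated F test of the 3 doses against each other, which does not use the control mice as a side, passed for 10 of the 42, against 3162 (27.7%) of all rows.

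**Figure D3:**
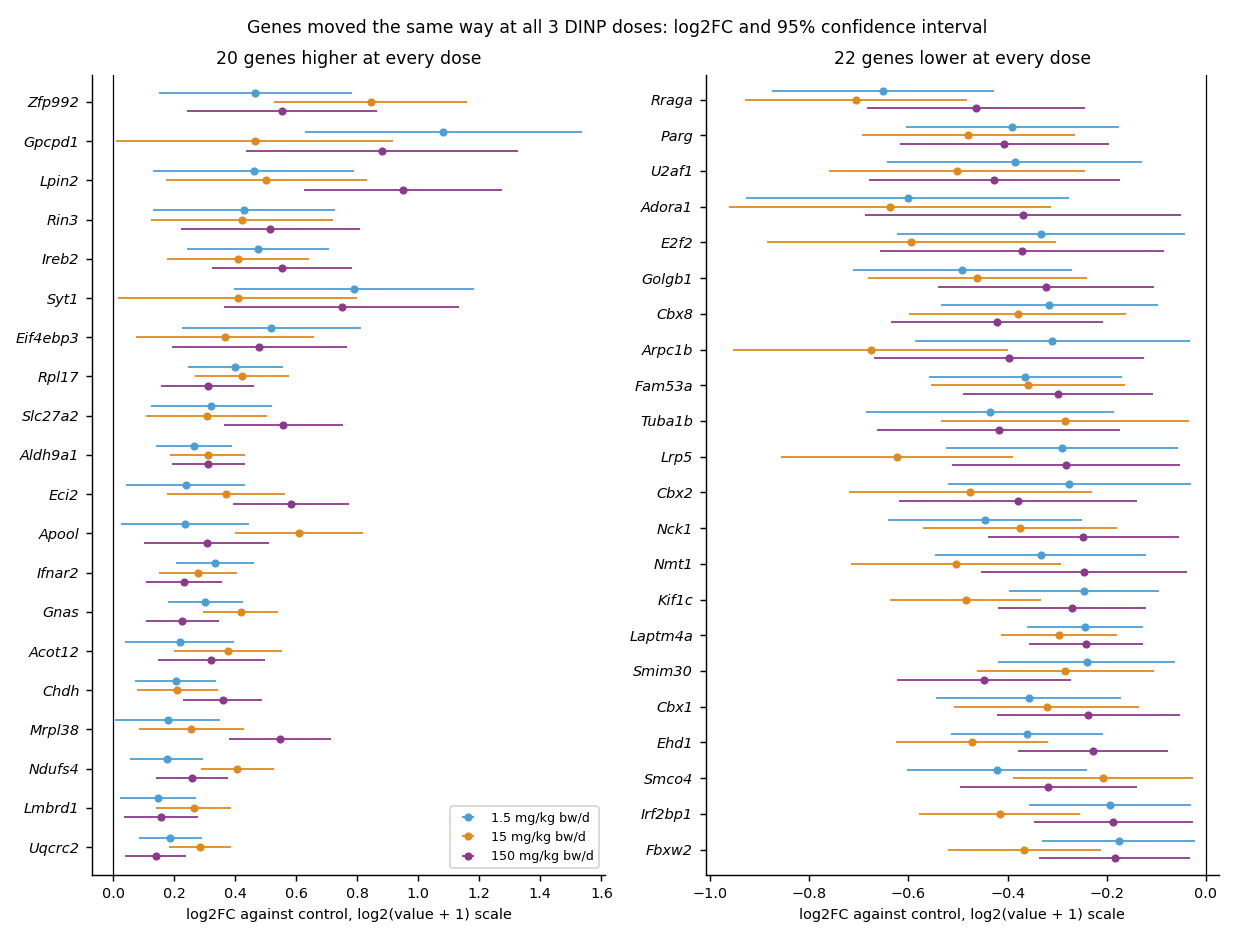
log2FC against control (x axis, log2(value + 1) scale) with its 95% confidence interval at 1.5, at 15 and at 150 mg/kg bw/d for the 20 genes higher (left) and the 22 genes lower (right) at every dose, ordered by the smallest of the 3. No interval crosses 0, since the rule requires this, and most intervals of 1 gene overlap each other.

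The clearest difference was in Rraga, the gene of RagA, a small GTPase that recruits mTORC1 to the lysosome when amino acids are plentiful. Rraga lies at chr4:86575668-86577285, plus strand (GRCm38, GENCODE M21). Lowest, median and highest normalised values were 57.4, 89.1 and 107 in control mice, 42.2, 51.0 and 75.1 at 1.5, 34.3, 58.7 and 73.9 at 15 and 41.8, 63.8 and 86.3 at 150 mg/kg bw/d. All 40 exposed mice lay below the control median, but the ranges overlapped. Rraga fell by 0.61 on the log2 scale in the pooled contrast (95% confidence interval -0.79 to -0.43, adjusted p = 0.000119), with -0.65, -0.71 and -0.46 at 1.5, at 15 and at 150 mg/kg bw/d. The doses did not separate in the F test (adjusted p = 0.183), and without the 8 libraries the difference was -0.55, adjusted p = 0.000344. It was the lowest adjusted p of all rows.

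Around Rraga, the list of mTORC1 and Rag GTPase genes had 33 tested members, of which 2 (6.06%) were lower and none higher, against 1.07% called over all rows and 0.534% lower, with a median of 0.047. The second was Lamtor1, a subunit of the Ragulator scaffold that anchors the Rag GTPases (-0.21, adjusted p = 0.0478), with -0.17, -0.51 and 0.063 at 1.5, at 15 and at 150 mg/kg bw/d. The doses of Lamtor1 differed, with the largest value at 15 mg/kg bw/d (F test, adjusted p = 1.14e-07), and its pooled call was lost without the 8 libraries (-0.19, adjusted p = 0.065). A lysosomal membrane protein, Laptm4a (chr12:8921664-8938742, plus strand), was steadier. Its values were 174, 194 and 229 in control mice, 151, 162 and 196 at 1.5, 115, 171 and 188 at 15 and 151, 163 and 197 at 150 mg/kg bw/d. Only 2 of 40 exposed mice were above the control median, and the pooled log2FC was -0.26 (95% confidence interval -0.36 to -0.17, adjusted p = 0.00124) with -0.24, -0.30 and -0.24 at the rising doses. Without the 8 libraries the pooled log2FC of Laptm4a was -0.21, adjusted p = 0.00127, with -0.23, -0.17 and -0.24. Among 42 tested genes of the lysosome list, to which Laptm4a was not assigned, none was called, and their median was -0.024. The autophagy list had 1 higher (Tax1bp1, an autophagy receptor, 0.16, adjusted p = 0.0478) and 1 lower gene (Ulk1, the kinase that starts autophagy, -0.37, adjusted p = 0.022) of 35 (5.71%). With lists of this size and 1.07% of all rows called, counts of 0 to 2 are a description only.

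Of the higher genes, Aldh9a1, Slc27a2, Eci2, Acot12, Chdh, Lpin2 and Gpcpd1 have roles in fatty acid, choline or carnitine metabolism. They are described side by side for these roles, a grouping made after the members were known and not a list with a count of its own. Aldh9a1, at chr1:167349991-167368532, plus strand, encodes the dehydrogenase that makes a precursor of carnitine, the carrier of fatty acids into mitochondria. Its values were 39.8, 53.3 and 59.2 in control mice, 50.0, 64.5 and 74.4 at 1.5, 50.5, 63.8 and 77.8 at 15 and 58.5, 64.0 and 76.5 at 150 mg/kg bw/d. Of the 40 exposed mice, 38 were above the control median, and the highest control mouse reached the lower part of each exposed group. The pooled log2FC was 0.30 (95% confidence interval 0.20 to 0.40, adjusted p = 0.000547), and the 3 doses gave nearly one value, 0.27, 0.31 and 0.31 (F test, adjusted p = 0.79). The difference between 150 and 1.5 mg/kg bw/d was 0.047 with a 95% confidence interval of -0.076 to 0.17.

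Slc27a2, which imports and activates very long-chain fatty acids, had values of 61.2, 88.5 and 97.9 in control mice, 87.5, 102 and 129.7 at 1.5, 48.7, 102 and 175 at 15 and 104, 126 and 144 at 150 mg/kg bw/d. It lies at chr2:126552407-126588243, plus strand. Every mouse at 150 mg/kg bw/d was above the highest control mouse, while at 15 mg/kg bw/d 1 mouse was below all controls. The pooled log2FC was 0.40 (95% confidence interval 0.23 to 0.56, adjusted p = 0.00431), from 0.32, 0.31 and 0.56. Eci2, an enoyl-CoA isomerase of the oxidation of unsaturated fatty acids, was at 58.9, 102 and 139 in control mice, 90.3, 118 and 140.2 at 1.5, 97.5, 119.7 and 176 at 15 and 118, 148 and 198 at 150 mg/kg bw/d. It rose by a pooled log2FC of 0.40 (95% confidence interval 0.24 to 0.55, adjusted p = 0.00344), and its doses differed, with 0.24, 0.37 and 0.58 (F test, adjusted p = 0.016). Acot12, a thioesterase that releases acetate from acetyl-CoA, rose as well (0.31, adjusted p = 0.0196), and so did the choline dehydrogenase gene Chdh (0.26, adjusted p = 0.00527), which starts the conversion of choline to betaine.

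Lpin2 and Gpcpd1 had the largest pooled log2FC of these 7 genes. Lpin2, a phosphatidate phosphatase of triglyceride synthesis, had values of 28.1, 41.5 and 56.7 in control mice, 35.4, 58.7 and 118 at 1.5, 35.4, 58.7 and 98.2 at 15 and 43.3, 91.6 and 143 at 150 mg/kg bw/d. Control mice were tightly grouped, and the exposed mice spread to values of more than the highest control mouse in every dose group. The pooled log2FC was 0.64 (95% confidence interval 0.37 to 0.90, adjusted p = 0.00566), with 0.46, 0.50 and 0.95 at 1.5, at 15 and at 150 mg/kg bw/d, and the doses differed (F test, adjusted p = 0.0289). Gpcpd1, a phosphodiesterase that splits glycerophosphocholine, had values of 3.12, 16.4 and 30.3 in control mice, 13.7, 37.4 and 73.4 at 1.5, 7.98, 24.3 and 48.0 at 15 and 19.8, 28.9 and 47.0 at 150 mg/kg bw/d. Its largest difference was at the lowest dose, 1.08 (0.63 to 1.54), against 0.46 (0.011 to 0.92) at 15 and 0.88 (0.43 to 1.32) at 150 mg/kg bw/d, with 95% confidence intervals in parentheses. The pooled log2FC was 0.81 (95% confidence interval 0.44 to 1.17, adjusted p = 0.0131), and a rank-sum test did not call it. The unadjusted p at 15 mg/kg bw/d was 0.0451, and with 1 mouse left out at a time Gpcpd1 was moved at every dose in 39 of 54 fits.

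**Figure D4:**
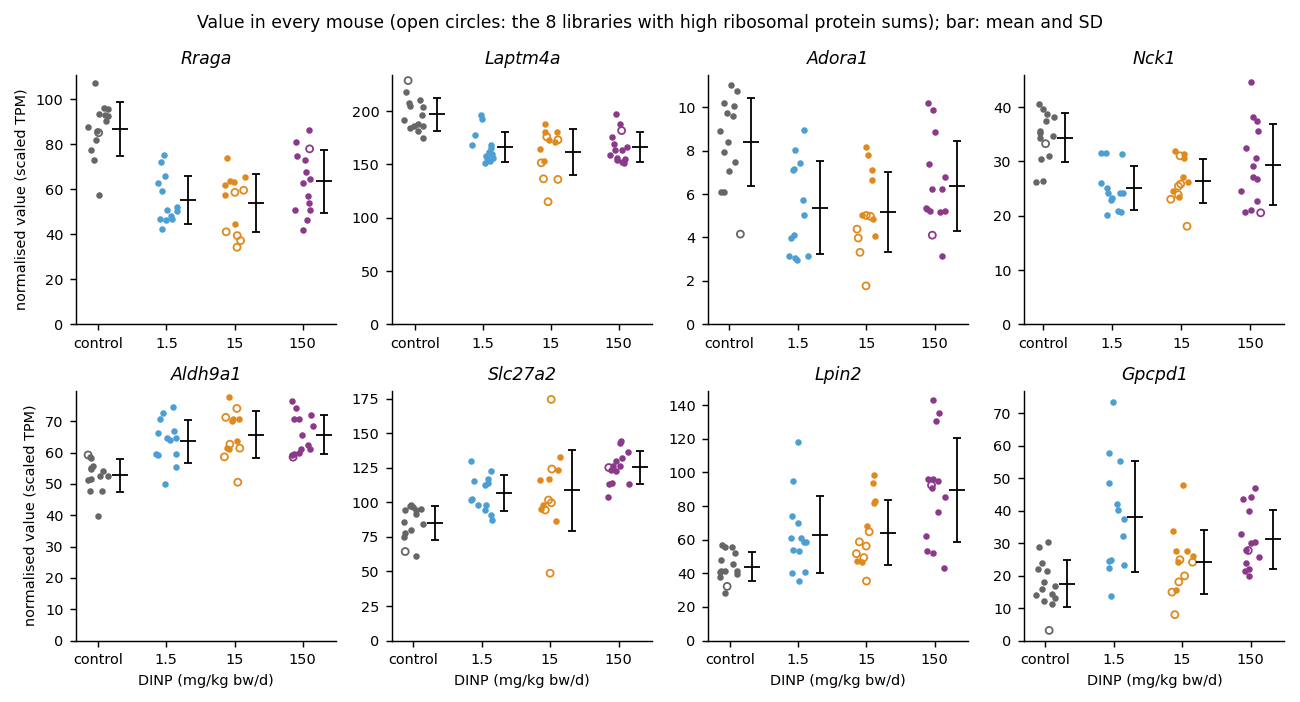
Normalised value (scaled TPM, y axis from 0) in every mouse by DINP dose in mg/kg bw/d for 4 genes lower (top) and 4 genes higher (bottom) at every dose, with the mean and SD of each group as a bar and open circles for the 8 libraries with high ribosomal protein sums. All 40 exposed mice are below the control median of 89.1 for Rraga. For each gene the range of the exposed mice overlaps that of control. For Slc27a2, every mouse at 150 mg/kg bw/d is above the highest control mouse.

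Promoters are shown for Rraga and Laptm4a (lower) and for Aldh9a1, Slc27a2 and Eci2 (higher), of which Rraga had the lowest adjusted p of all rows and the others were described above with it. Each window is RefSeq sequence of GRCm38.p6, 5′ to 3′ on the gene's strand, from 250 bases before to 50 after a transcript start of RefSeq. That start is not always the outer start of the GENCODE gene: it was the same for Aldh9a1, 5 bases downstream for Rraga, 357 upstream for Laptm4a, 617 downstream for Slc27a2 and 32952 downstream for Eci2. The windows are chr4:86575423-86575722, plus strand for Rraga, chr12:8921057-8921356, plus strand for Laptm4a, chr1:167349741-167350040, plus strand for Aldh9a1, chr2:126552774-126553073, plus strand for Slc27a2 and chr13:34994095-34994394, minus strand for Eci2. Capitals mark the motifs found on either strand among those searched.
Rraga: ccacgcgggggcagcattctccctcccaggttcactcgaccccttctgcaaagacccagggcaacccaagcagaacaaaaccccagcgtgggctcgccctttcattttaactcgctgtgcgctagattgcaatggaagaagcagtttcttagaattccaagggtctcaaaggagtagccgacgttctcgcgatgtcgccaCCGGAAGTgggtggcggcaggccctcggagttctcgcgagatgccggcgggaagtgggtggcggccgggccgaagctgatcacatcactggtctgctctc
Laptm4a: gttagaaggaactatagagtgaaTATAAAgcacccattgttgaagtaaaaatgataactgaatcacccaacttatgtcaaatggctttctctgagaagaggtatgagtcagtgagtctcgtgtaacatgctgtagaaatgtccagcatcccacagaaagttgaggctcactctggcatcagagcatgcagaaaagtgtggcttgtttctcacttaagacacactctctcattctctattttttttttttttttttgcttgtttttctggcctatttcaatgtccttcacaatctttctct
Aldh9a1: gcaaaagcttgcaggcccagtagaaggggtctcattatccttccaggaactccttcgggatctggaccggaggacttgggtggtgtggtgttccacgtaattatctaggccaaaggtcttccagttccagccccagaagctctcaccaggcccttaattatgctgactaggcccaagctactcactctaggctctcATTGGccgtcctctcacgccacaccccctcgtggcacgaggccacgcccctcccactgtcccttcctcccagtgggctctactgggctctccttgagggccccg
Slc27a2: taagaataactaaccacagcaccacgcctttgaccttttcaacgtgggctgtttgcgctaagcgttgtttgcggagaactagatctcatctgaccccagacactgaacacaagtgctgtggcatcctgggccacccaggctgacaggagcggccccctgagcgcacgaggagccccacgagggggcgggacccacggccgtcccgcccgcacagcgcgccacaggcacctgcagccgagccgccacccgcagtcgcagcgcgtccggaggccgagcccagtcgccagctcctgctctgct
Eci2: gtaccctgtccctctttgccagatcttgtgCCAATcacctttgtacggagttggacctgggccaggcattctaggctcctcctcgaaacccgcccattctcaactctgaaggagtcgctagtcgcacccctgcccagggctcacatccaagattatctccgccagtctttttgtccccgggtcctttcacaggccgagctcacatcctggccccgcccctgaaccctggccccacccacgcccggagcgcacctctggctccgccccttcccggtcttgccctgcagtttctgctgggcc

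The motifs searched, on both strands, were the E-box CACGTG, the D-box TTATGTAA, the CRE TGACGTCA, an ETS site CCGGAAGT, an NRF1 site, the box CCAAT, the PPAR direct repeat (a pair of AGGTCA with 1 base between them) and the box TATAAA, none of which contains another. Windows were found for 31 of the 42 genes, 48 windows in all. The ETS letters begin 50 bases before the RefSeq start in Rraga and were also found in Parg, in 3 of the 24 windows of the lower genes (12.5%), against 3.89% of all 32817 distinct windows. No window of the higher genes had them. The direct repeat was in none of the 48 windows and in 0.0396% of all windows. CCAAT was in 33.3% of the windows of the 42 genes and in 37.4% of all, and the E-box in 4.17% and 7.15%. A match is a description of the letters only, and its absence says only that these letters are not in this window.

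Among the remaining higher genes were parts of the mitochondrial and ribosomal machinery. Rpl17, a protein of the large ribosomal subunit, had values of 74.8, 90.8 and 108 in control mice, 105, 124 and 150.2 at 1.5, 90.4, 125 and 152 at 15 and 80.7, 115 and 148 at 150 mg/kg bw/d. 37 of 40 exposed mice were above the control median, with a pooled log2FC of 0.38 (95% confidence interval 0.25 to 0.50, adjusted p = 0.000505) and 0.40, 0.42 and 0.31 at 1.5, at 15 and at 150 mg/kg bw/d. High sums of genes of its kind set the 8 libraries named above apart, and without them Rpl17 stood at 0.30, adjusted p = 0.00223. By dose Rpl17 was then at 0.38, 0.26 and 0.26, with the largest difference at 1.5 and no longer at 15 mg/kg bw/d. Its processed copy Rpl17-ps8 was also called (0.45, adjusted p = 0.0109), and reads shared by near-identical copies could have been split by the authors' quantification, so both values are uncertain. In the list of 86 cytosolic ribosomal protein genes 3 were higher (3.49%), against 1.07% called over all rows and 0.534% higher. Beside Rpl17 they were Rpl4 (0.32, adjusted p = 0.0236) and Fau (0.24, adjusted p = 0.0466), and the median of the list was 0.072, or -0.014 without the 8 libraries. Rpl4 rested on 15 mg/kg bw/d, with 0.14, 0.83 and -0.0087 (F test, adjusted p = 1.58e-08).

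Ndufs4, a subunit of respiratory complex I, had values of 107, 123 and 140.3 in control mice, 117, 140.2 and 158 at 1.5, 135, 162 and 233 at 15 and 129, 146 and 187 at 150 mg/kg bw/d. Only 1 exposed mouse was below the control median. The pooled log2FC was 0.28 (95% confidence interval 0.18 to 0.38, adjusted p = 0.000705), with 0.18, 0.41 and 0.26, and the doses differed (F test, adjusted p = 0.00967). Uqcrc2, a core subunit of complex III, had the second smallest change of the 42 (0.20, adjusted p = 0.00431). Apool, a protein of the mitochondrial cristae, was at 0.38, adjusted p = 0.0103, and the mitochondrial ribosomal gene Mrpl38 at 0.33, adjusted p = 0.00601. In the lists, 1 of 38 complex I genes (2.63%), 1 of 38 genes of complexes II to V (2.63%) and 2 of 77 mitochondrial ribosomal genes (2.6%) were called, against 1.07% of all rows, counts too small to set these lists apart. The medians of these lists were 0.029, 0.083 and 0.056, and without the 8 libraries -0.022, 0.013 and 0.013.

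Gnas, which encodes the stimulatory G protein α subunit at an imprinted locus with several overlapping transcripts, had values of 409.9, 469 and 529.9 in control mice, 471, 584 and 695 at 1.5, 508, 603 and 788 at 15 and 484, 551 and 639.7 at 150 mg/kg bw/d. All 40 exposed mice were above the control median. Pooled, the log2FC was 0.32 (95% confidence interval 0.22 to 0.42, adjusted p = 0.000225), with 0.30, 0.42 and 0.23, and the F test gave an adjusted p of 0.0409. Ifnar2, a chain of the type I interferon receptor, was at 56.6, 68.0 and 81.3 in control mice, 77.7, 83.3 and 102 at 1.5, 68.2, 83.3 and 94.6 at 15 and 63.8, 77.8 and 105 at 150 mg/kg bw/d. It rose by a pooled log2FC of 0.28 (95% confidence interval 0.18 to 0.38, adjusted p = 0.00124), and 39 of 40 exposed mice were above the control median. None of 31 tested genes of the interferon response was called, a count close to the 1.07% called over all rows, and their median was -0.034.

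Ireb2 encodes iron regulatory protein 2, an RNA-binding protein that sets ferritin and transferrin receptor synthesis by iron supply. Its values were 7.94, 12.3 and 15.8 in control mice, 10.2, 15.2 and 25.7 at 1.5, 11.1, 14.9 and 22.4 at 15 and 10.4, 17.6 and 24.0 at 150 mg/kg bw/d. Its pooled log2FC was 0.48 (95% confidence interval 0.29 to 0.67, adjusted p = 0.00323), and the doses gave 0.47, 0.41 and 0.55 (F test, adjusted p = 0.606). It was the single called gene of 18 in the iron list (5.56%), against 1.07% called over all rows. Eif4ebp3, a member of the family of translation repressors that mTORC1 inactivates, rose by 0.45, adjusted p = 0.0378. It was the single called gene of 65 of translation initiation and elongation (1.54%). Both counts are too small to set these lists apart from all rows. Lmbrd1, a lysosomal exporter of vitamin B12, had the smallest change (0.19, adjusted p = 0.0417).

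At the low end of the range, Zfp992, a zinc finger gene, had values of 0, 0.983 and 1.87 in control mice, 0.894, 1.03 and 2.09 at 1.5, 0.886, 2.01 and 3.32 at 15 and 0.970, 1.05 and 3.18 at 150 mg/kg bw/d. Values this low take only whole steps of about 1, and the pooled log2FC of 0.62 (95% confidence interval 0.37 to 0.88, adjusted p = 0.00461) with 0.47, 0.84 and 0.55 rests on them. The control mean of Zfp992, 0.759, was below the minimum mean of 1, so it was tested only because exposed mice were higher. Its adjusted p is therefore no independent support for a rise, although the call held without a filter on low values. Also at low values, Rin3, a Rab5 exchange factor, was at 0.46, adjusted p = 0.0426 and the vesicle calcium sensor Syt1 at 0.65, adjusted p = 0.0236. Rin3 too had a control mean below 1 (0.946), so its adjusted p has the same limit, and its call was lost without a filter on low values. In all, 6 of the 42 genes had a control mean under 5 (Zfp992, Rin3, Syt1, E2f2, Cbx8 and Cbx2).

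Of the lower genes, 3 are chromobox genes, described side by side as a grouping made after the members were known and not counted as a list. Cbx8 (-0.37, adjusted p = 0.0199) and Cbx2 (-0.38, adjusted p = 0.0417) encode readers of Polycomb repressive complex 1, and Cbx1 (-0.31, adjusted p = 0.0272) a heterochromatin protein. Cbx2 (chr11:119022962-119031270, plus strand) and Cbx8 (chr11:119036305-119040969, minus strand) are neighbours, 5034 bases apart, on opposite strands. Cbx8 had values of 1.92, 2.95 and 3.74 in control mice, 1.04, 2.02 and 2.98 at 1.5, 0.967, 1.99 and 3.06 at 15 and 0.970, 2.07 and 2.95 at 150 mg/kg bw/d. In these few steps per mouse, 36 of 40 exposed mice lay below the control median. The doses gave -0.32, -0.38 and -0.42 for Cbx8, -0.28, -0.48 and -0.38 for Cbx2 and -0.36, -0.32 and -0.24 for Cbx1. Without the 8 libraries the log2FC of Cbx1 at 15 mg/kg bw/d was -0.023, so that it was no longer moved at that dose (pooled -0.22, adjusted p = 0.0216). E2f2, a transcription factor of the cell cycle, was at -0.43, adjusted p = 0.049. None of 15 tested genes of the cell cycle list, which did not hold E2f2, was called, a count close to the 1.07% called over all rows.

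Further lower genes act in membrane traffic and the cytoskeleton, again a grouping made after the members were known. Golgb1, a Golgi tethering protein, had values of 49.5, 65.9 and 79.5 in control mice, 26.2, 50.1 and 62.7 at 1.5, 29.2, 46.6 and 73.9 at 15 and 40.3, 54.2 and 67.4 at 150 mg/kg bw/d. It fell by a pooled log2FC of -0.42 (95% confidence interval -0.60 to -0.25, adjusted p = 0.00597), and 38 of 40 exposed mice were below the control median. Ehd1, which drives endosome recycling, was at 11.4, 15.3 and 18.1 in control mice, 8.06, 11.8 and 15.2 at 1.5, 8.94, 10.0 and 14.1 at 15 and 10.4, 12.8 and 16.6 at 150 mg/kg bw/d. Its pooled log2FC was -0.35 (95% confidence interval -0.48 to -0.23, adjusted p = 0.000815), with -0.36, -0.47 and -0.23 (F test, adjusted p = 0.0387). Kif1c, a kinesin motor, fell (-0.33, adjusted p = 0.00124), as did Arpc1b, a subunit of the actin-nucleating Arp2/3 complex (-0.46, adjusted p = 0.0236), the adaptor Nck1 (-0.36, adjusted p = 0.0113) and the α-tubulin gene Tuba1b (-0.38, adjusted p = 0.045). Nmt1, which attaches myristate to proteins such as small GTPases, was at -0.36, adjusted p = 0.0199, with 39 of 40 exposed mice below the control median.

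The remaining lower genes were of receptors, RNA and DNA. Adora1, the adenosine A1 receptor, had values of 4.16, 8.65 and 11.0 in control mice, 2.94, 5.04 and 8.95 at 1.5, 1.77, 4.97 and 8.18 at 15 and 3.13, 5.78 and 10.2 at 150 mg/kg bw/d. It was, beside Rraga, the other gene of the 22 below −0.5 (-0.54 (95% confidence interval -0.80 to -0.27, adjusted p = 0.0242)), with -0.60, -0.64 and -0.37. Lrp5, a Wnt co-receptor, was lower in all 40 exposed mice than the control median (-0.40, adjusted p = 0.0199), and its doses differed (-0.29, -0.62 and -0.28; F test, adjusted p = 0.0307). With the 8 libraries left out, its log2FC were -0.29, -0.28 and -0.23, with the value at 15 mg/kg bw/d no longer the largest. U2af1, the splicing factor that reads the 3′ splice site, had values of 92.5, 126 and 175 in control mice, 74.3, 94.4 and 120.0 at 1.5, 45.2, 84.5 and 140.1 at 15 and 59.0, 90.6 and 140.1 at 150 mg/kg bw/d and a pooled log2FC of -0.44 (95% confidence interval -0.65 to -0.23, adjusted p = 0.0199). Parg, which removes poly(ADP-ribose), fell by a pooled log2FC of -0.43 (95% confidence interval -0.60 to -0.25, adjusted p = 0.00431). The splicing list had 3 lower genes and 1 higher of 84 (4.76%), against 1.07% called over all rows and 0.534% lower, with a median of -0.033. Beside U2af1 they were Sf3a2 (-0.38, adjusted p = 0.0361), Hnrnpk (-0.28, adjusted p = 0.0417) and Rbm25 (0.27, adjusted p = 0.0341). Those 3 differed between doses (F test, adjusted p = 7.51e-05, 0.0109 and 0.0181), with -0.24, -0.78 and -0.12, -0.24, -0.46 and -0.13 and 0.14, 0.44 and 0.23. The other members were Fam53a, Smco4, Smim30, Irf2bp1 and Fbxw2, with pooled log2FC from -0.24 to -0.34.

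Calls of single genes held to different degrees. Of the 42 genes, 28 were called in all 54 fits that left out 1 mouse, and 19 (9 higher, 10 lower) in these and under all 17 alternatives, or 16 where the gene was too low for 1 of them. The 9 higher were Aldh9a1, Gnas, Ifnar2, Ireb2, Lpin2, Ndufs4, Rpl17, Slc27a2 and Zfp992, and the 10 lower Ehd1, Fam53a, Golgb1, Kif1c, Laptm4a, Nck1, Parg, Rraga, Smco4 and Smim30. Of these, Zfp992 passed the minimum mean only through its exposed mice (control mean 0.759), a limit that its stability does not remove. No member changed sign under an alternative. These counts are of the pooled call. In addition, Gpcpd1, Mrpl38, Apool and Smco4 kept the call in all 54 fits and were moved at every dose in 39, 44, 50 and 52 of them, and Syt1 was called in 51 and moved at every dose in 43. The pooled call rested on 1 mouse or more in 14 genes. They were E2f2 (13 of 54 fits, highest adjusted p = 0.0981 without control replicate 8), Tuba1b (28 of 54 fits, highest adjusted p = 0.104 without control replicate 8), Rin3 (31 of 54 fits, highest adjusted p = 0.0903 without control replicate 1), Lmbrd1 (37 of 54 fits, highest adjusted p = 0.0922 without control replicate 6), Cbx2 (40 of 54 fits, highest adjusted p = 0.0968 without control replicate 2), Eif4ebp3 (46 of 54 fits, highest adjusted p = 0.0861 without control replicate 8), Fbxw2 (48 of 54 fits, highest adjusted p = 0.0825 without control replicate 7), Irf2bp1 (50 of 54 fits, highest adjusted p = 0.0603 without control replicate 3), Syt1 (51 of 54 fits, highest adjusted p = 0.0629 without control replicate 8), Adora1 (52 of 54 fits, highest adjusted p = 0.0508 without control replicate 13), Cbx1 (52 of 54 fits, highest adjusted p = 0.0606 without control replicate 13), Nmt1 (52 of 54 fits, highest adjusted p = 0.0513 without control replicate 12), Acot12 (53 of 54 fits, highest adjusted p = 0.0552 without control replicate 8) and Arpc1b (53 of 54 fits, highest adjusted p = 0.0763 without control replicate 8). In all 14 the highest adjusted p came with a control mouse left out.

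Without the 8 libraries, 37 of the 42 genes were still called, 33 were still moved at every dose, and all 42 kept their sign. The 5 that lost the call were Rin3 (0.38, adjusted p = 0.0882), Lmbrd1 (0.16, adjusted p = 0.096), U2af1 (-0.31, adjusted p = 0.0573), E2f2 (-0.39, adjusted p = 0.056) and Fbxw2 (-0.18, adjusted p = 0.0788). Another 4 kept the call and were no longer moved at every dose. Their log2FC at 15 mg/kg bw/d became 0.20 for Eci2, 0.15 for Mrpl38, -0.26 for Tuba1b and -0.023 for Cbx1. With fewer libraries the pooled contrast called more, 116 higher and 114 lower, of which 102 were among the 122, and 58 higher and 59 lower were moved at every dose. The number of rows in which doses differed was 1516. Without the 5 libraries of low correlation 119 rows were called, 34 of the 42 among them, and with the ribosomal protein sum as a covariate 187, 40 of the 42 among them.

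The other 80 called genes, 41 higher and 39 lower, were not moved at every dose. In 71 of them all doses had the same sign, and in 9 at least 1 dose had the other. Of all 122 called genes, 67 were past an unadjusted p of 0.05 at 2 doses and 13 at 1 dose, and the doses differed in the F test in 74 (60.7%), 64 of them among these 80. Over the 122 the largest difference was at 15 mg/kg bw/d in 72, at 1.5 in 22 and at 150 in 28. Without the 8 libraries it was at 15 mg/kg bw/d in 61, at 1.5 in 27 and at 150 in 34.

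**Figure D5:**
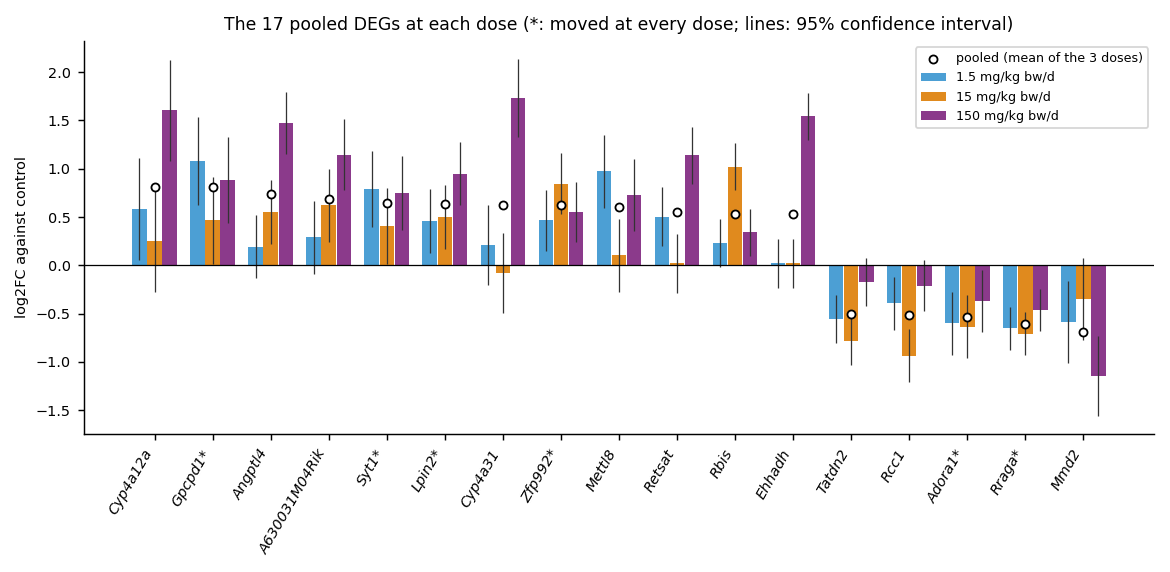
log2FC against control at 1.5, at 15 and at 150 mg/kg bw/d (bars, y axis from 0, with 95% confidence intervals) for the 17 pooled DEGs, with the pooled log2FC as a circle and an asterisk for genes moved at every dose. The bars of Ehhadh, Cyp4a31 and Retsat are near 0 at 15 mg/kg bw/d and above 1 at 150.

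Of the 17 pooled DEGs, 6 were moved at every dose (Gpcpd1, Lpin2, Syt1 and Zfp992 higher, Rraga and Adora1 lower). The others included the targets of PPARα with a change at the highest dose. Ehhadh, the bifunctional enzyme of peroxisomal β-oxidation, had values of 10.6, 14.2 and 30.0 in control mice, 11.5, 15.2 and 23.8 at 1.5, 11.1, 15.1 and 21.9 at 15 and 33.0, 48.9 and 73.1 at 150 mg/kg bw/d. Every mouse at 150 mg/kg bw/d was above all other mice of the study. The pooled log2FC of 0.53 (95% confidence interval 0.33 to 0.73, adjusted p = 0.00215) was the mean of 0.019, 0.019 and 1.54 (F test, adjusted p = 6.67e-15). Cyp4a12a and Cyp4a31, ω-hydroxylases of fatty acids, had pooled log2FC of 0.81, adjusted p = 0.0417, and 0.62, adjusted p = 0.0466, from 0.58, 0.25 and 1.60 and from 0.21, -0.079 and 1.73. Cyp4a31 lost the call without the 8 libraries (0.55, adjusted p = 0.0816). Angptl4, the secreted inhibitor of lipoprotein lipase, had its medians in the order of the doses, with values of 2.65, 6.72 and 11.4 in control mice, 4.65, 7.63 and 11.6 at 1.5, 4.42, 9.73 and 17.9 at 15 and 8.86, 18.5 and 28.6 at 150 mg/kg bw/d. Its pooled log2FC was 0.74 (95% confidence interval 0.47 to 1.01, adjusted p = 0.00116), from 0.19, 0.55 and 1.47.

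Retsat, a retinol saturase, was at 0.50, 0.023 and 1.14 and Mettl8, an RNA methyltransferase, at 0.97, 0.10 and 0.73, so that for both the middle dose was near control and the others above it (pooled 0.55, adjusted p = 0.0113, and 0.60, adjusted p = 0.0328). A long noncoding RNA, A630031M04Rik, had 0.29, 0.62 and 1.15 (pooled 0.69, adjusted p = 0.0113). Rbis, a factor of ribosome biogenesis, rested on 15 mg/kg bw/d, with 0.23, 1.02 and 0.34 (pooled 0.53, adjusted p = 0.00153). The 3 further lower DEGs were Mmd2 with -0.59, -0.35 and -1.14 (pooled -0.69, adjusted p = 0.0273), Rcc1, the nucleotide exchange factor of Ran, with -0.39, -0.94 and -0.21 (pooled -0.51, adjusted p = 0.0078), and Tatdn2, a nuclease, with -0.55, -0.78 and -0.17 (pooled -0.50, adjusted p = 0.00431). Rcc1 overlaps snoRNA genes and Snhg3 on its strand.

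For 5 lists of fatty acid metabolism and PPARα targets, the pooled calls are given beside 1.07% of all rows. Lists outside these 5 held called genes too. Among 5 tested Cyp4a genes 2 were higher, among 17 of peroxisomal β-oxidation 3 (Ehhadh, Decr2 and Abcd3), among 18 of mitochondrial β-oxidation 2 (Eci2 and Eci1), among 10 of carnitine synthesis and shuttle 2 (Aldh9a1 and the carnitine transporter gene Slc22a5) and among 18 other PPARα targets 3 (Angptl4, Lpin2 and Slc27a2), and none of these lists had a lower gene. Their median pooled log2FC were 0.66, 0.09, 0.15, 0.15 and 0.19. By dose the same medians were 0.21, -0.05, -0.0048, 0.054 and -0.045 at 1.5, 0.076, 0.048, 0.093, -0.02 and 0.039 at 15 and 1.76, 0.29, 0.27, 0.30 and 0.42 at 150 mg/kg bw/d. At 15 mg/kg bw/d the medians were thus below those at 1.5 for the Cyp4a and carnitine lists, and those at 150 were the highest for each of the 5 lists. Without the 8 libraries the pooled medians were 0.69, 0.066, 0.11, 0.063 and 0.055. The lists were chosen with earlier results of these mice known, and their counts are a description.

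Single members give the shape behind those medians. Decr2, a peroxisomal dienoyl-CoA reductase, had 0.35, 0.11 and 0.49 (pooled 0.31, adjusted p = 0.0125), Abcd3, a peroxisomal fatty acid transporter, 0.26, 0.13 and 0.42 (pooled 0.27, adjusted p = 0.0478), and Eci1, the mitochondrial enoyl-CoA isomerase, 0.10, 0.32 and 0.48 (pooled 0.30, adjusted p = 0.0361). Slc22a5 had 0.094, 0.31 and 0.77 (pooled 0.39, adjusted p = 0.0466) and lost the call without the 8 libraries (0.31, adjusted p = 0.0949). Hsd17b11, a lipid droplet dehydrogenase, had 0.10, 0.39 and 0.74 (pooled 0.41, adjusted p = 0.00153). Ppara itself did not pass, with values of 82.1, 134 and 187 in control mice, 105, 148 and 204 at 1.5, 93.9, 135 and 242 at 15 and 134, 196 and 264 at 150 mg/kg bw/d, a pooled log2FC of 0.33 (95% confidence interval 0.13 to 0.52, adjusted p = 0.079) and 0.20, 0.20 and 0.58 by dose. Its doses differed in the F test (adjusted p = 0.012).

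Slc25a22 and Bdh1, of glutamate and ketone metabolism, were called lower. Slc25a22, a mitochondrial glutamate carrier, had values of 68.0, 75.6 and 104 in control mice, 53.8, 60.9 and 70.6 at 1.5, 36.1, 53.1 and 67.4 at 15 and 59.5, 83.6 and 118 at 150 mg/kg bw/d. Below the lowest control mouse lay 12 of 13 mice at 1.5, 13 of 13 at 15 and 3 of 14 at 150 mg/kg bw/d, with -0.38, -0.61 and 0.065 (pooled -0.31, adjusted p = 0.0199, F test adjusted p = 4.97e-07). Bdh1, which interconverts ketone bodies, followed with -0.35, -0.58 and 0.032 (pooled -0.30, adjusted p = 0.03). It was the single called gene of 7 of ketogenesis (14.3%), against 1.07% called over all rows, a count too small to describe the list. Keap1, the sensor that holds the antioxidant factor NRF2, was named after its values were seen, with the lowest adjusted p of the genes not moved at every dose. It had -0.27, -0.47 and -0.048 (pooled -0.27, adjusted p = 0.000621). Of 18 tested NRF2 targets none was called, a count close to the 1.07% called over all rows (median -0.028).

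In the proteasome list 2 genes were higher (Psma6, 0.22, adjusted p = 0.0229, and Psmd6, 0.23, adjusted p = 0.0236) and 1 lower (Psmd11, -0.23, adjusted p = 0.0228) of 46 (6.52%), against 1.07% called over all rows. Psmd6 and Psmd11 lost their calls without the 8 libraries (0.18, adjusted p = 0.0776, and -0.16, adjusted p = 0.0704). Mbl2, the mannose-binding lectin that starts complement activation, fell (-0.27, adjusted p = 0.0239) with -0.32, -0.11 and -0.36, alone among 24 complement genes. No gene was called among 14 of de novo lipogenesis, 25 of cholesterol synthesis, 19 of bile acid metabolism, 22 of gluconeogenesis and glycolysis, 35 cytochrome P450 genes of families 1 to 3, 16 UDP-glucuronosyltransferases, 23 glutathione S-transferases or 19 clock genes. Their medians ran from -0.021 for lipogenesis to 0.14 for the clock. The 31 tested extracellular matrix genes had a median of -0.13, with 28 below 0, against 5686 of all 11431 rows, and none called. By dose their medians were 0.019 at 1.5, -0.23 at 15 and -0.25 at 150 mg/kg bw/d, with the lowest dose just above 0. The 18 immediate early genes had a median of -0.19, with 17 below 0 and none called, and by dose -0.035 at 1.5, -0.25 at 15 and -0.31 at 150 mg/kg bw/d. Without the 8 libraries the medians were -0.10 for NRF2 targets, -0.056 for the lysosome list, -0.037 for lipogenesis, -0.18 for the extracellular matrix and -0.18 for immediate early genes.

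For the marker lists of other cell types, the median pooled log2FC was -0.17 for 12 Kupffer cell and macrophage markers, -0.23 for 6 of lipid-associated macrophages and monocytes, -0.32 for 3 of T and NK cells, -0.39 for 2 of neutrophils, -0.33 for 5 of erythroid cells and -0.081 for 9 of endothelial cells. It was 0.12 for 4 cholangiocyte markers, -0.056 for 2 of B cells, -0.016 for 8 of stellate cells and fibroblasts and 0.043 for 2 of muscle. Lists with 1 tested marker were at 0.019 (pancreatic acinar cells) and -0.11 (mesothelial cells). Adipocyte markers were at 0.30 (4 tested), with -0.16 at 1.5, -0.27 at 15 and 0.99 at 150 mg/kg bw/d by dose, and doses differed in the F test for 2 of the 4. Erythroid markers were at -0.78 at 1.5, -0.32 at 15 and -0.13 at 150 mg/kg bw/d. Summed adipocyte markers were 20.3 to 67.3 (median 35.5) in control mice, 18.2 to 107 (median 30.9) at 1.5, 15.3 to 91.3 (median 33.2) at 15 and 31.6 to 146 (median 54.1) at 150 mg/kg bw/d. Summed Kupffer cell markers were 185 to 552 (median 242) in control mice, 157 to 357 (median 250.2) at 1.5, 152 to 416 (median 199) at 15 and 162 to 340.5 (median 226) at 150 mg/kg bw/d. Single libraries stood far above their group in other sums. Muscle markers reached 83.6 in a control library and 268.5 in a library at 15 mg/kg bw/d, with group medians of 1.05 to 2.03, and control libraries reached 154.4 for cholangiocyte and 266.8 for lipid-associated macrophage markers, against control medians of 21.3 and 31.5. At 15 mg/kg bw/d the highest of these sums were 256.1 and 368.7, against medians of 21.9 and 31.9. The cholangiocyte and lipid-associated macrophage lists share the marker Spp1, so their sums are not separate measures. The ranges of the groups overlapped in each of these sums. The part of cell composition in any of the results, the lipid genes at 150 mg/kg bw/d included, was not tested.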

How the data were processed

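Liver RNA of 54 mice was measured by QuantSeq 3′ mRNA-Seq (V2, forward). Reads went through nf-core/rnaseq in the hands of the authors, and the labels name STAR, RSEM and Salmon on GRCm38. The deposited values are a signal, named TPM by the authors. In each mouse they were whole multiples (tolerance 0.001) of 1 step of 0.764 to 1.11, and the whole numbers summed to 948342 to 980641, so they were taken as rounded TPM divided by a size factor. Totals per mouse ran from 747258 to 1076439. Reads behind a value are unknown, and no count test was run.

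Groups came from the labels. Rows with a mean of at least 1 (11431 of 20162) were tested with limma 3.58.1 in R 4.3.3 (lmFit, eBayes with trend) on log2(value + 1), with 4 groups in 1 fit and Benjamini-Hochberg adjustment over all tested rows. All tests are 2-sided. p-values measure the spread between mice. Named genes were, of those moved at every dose, the 12 higher and the 12 lower with the largest smallest log2FC over the doses; the 6 largest increases and decreases among DEGs; up to 4 called members of each list, or 1 member where none was called; and Aldh9a1, Slc25a22, Rraga and Ppara. The remaining members and DEGs complete the sets, and some called genes are not reported here. Members, lists and tests were chosen with earlier results of these data known. Alternatives were pseudocounts of 0.1 and 5, no filter or a minimum mean of 5, quantile normalization, a common total, equal weight per mouse, each dose or mouse left out, a replicate block, array weights, robust eBayes and a Wilcoxon rank-sum test. Leaving out 2 sets of libraries and the ribosomal covariate were alternatives chosen after seeing the data. The procedure was tested on simulated data. Positions are from GENCODE M21 (GRCm38), and promoter windows from RefSeq (GRCm38.p6). Figures were drawn with matplotlib 3.10.9.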

Additional observations from a re-analysis of the deposited data

Results flagged for a closer look

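Of the 117 genes that the rule or the completion of a set named, 48 had dose groups that differed from each other in limma's moderated F test, and each is given here with its adjusted p. For such a gene the pooled value is a mean over unequal doses. The groups held more than 10 mice, so that no test for single outlying mice was made.

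Among the genes moved at every dose, 10 had doses of unequal size: Mrpl38 (adjusted p = 0.00172), Ndufs4 (adjusted p = 0.00967), Apool (adjusted p = 0.0116), Eci2 (adjusted p = 0.016), Kif1c (adjusted p = 0.0227), Lpin2 (adjusted p = 0.0289), Lrp5 (adjusted p = 0.0307), Ehd1 (adjusted p = 0.0387), Irf2bp1 (adjusted p = 0.0389) and Gnas (adjusted p = 0.0409). Mrpl38, Eci2 and Lpin2 had the largest of their differences at 150 mg/kg bw/d and the others at 15. Leaving out the 8 libraries, the largest was at 1.5 mg/kg bw/d for Gnas (0.31, 0.26 and 0.23), Lrp5 (-0.29, -0.28 and -0.23) and Ehd1 (-0.39, -0.38 and -0.28), and at the same dose as before for the other 7. Of the called genes that were not moved at every dose, 27 differed. Those with the largest difference at 150 mg/kg bw/d were Ehhadh (adjusted p = 6.67e-15), Cyp4a31 (adjusted p = 1.01e-08), Angptl4 (adjusted p = 2.26e-07), Retsat (adjusted p = 1.3e-06), Hsd17b11 (adjusted p = 5.71e-06), Slc22a5 (adjusted p = 0.000225), Cyp4a12a (adjusted p = 0.000226), A630031M04Rik (adjusted p = 0.00165), Decr2 (adjusted p = 0.00253), Eci1 (adjusted p = 0.00735), Mmd2 (adjusted p = 0.00919), Mbl2 (adjusted p = 0.0277) and Abcd3 (adjusted p = 0.0396). Those with the largest at 15 mg/kg bw/d were Rpl4 (adjusted p = 1.58e-08), Lamtor1 (adjusted p = 1.14e-07), Slc25a22 (adjusted p = 4.97e-07), Psmd11 (adjusted p = 1.43e-06), Rbis (adjusted p = 4.24e-06), Bdh1 (adjusted p = 8.77e-06), Sf3a2 (adjusted p = 7.51e-05), Rcc1 (adjusted p = 0.000155), Tax1bp1 (adjusted p = 0.000156), Tatdn2 (adjusted p = 0.000694), Psma6 (adjusted p = 0.00979), Hnrnpk (adjusted p = 0.0109) and Rbm25 (adjusted p = 0.0181). At 1.5 mg/kg bw/d it was largest in Mettl8 (adjusted p = 0.00134).

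A further 11 named genes were not called in the pooled contrast, and their doses differed: Gys2 (adjusted p = 6.09e-05), Dbt (adjusted p = 0.000662), Jund (adjusted p = 0.00294), Ccne2 (adjusted p = 0.00714), Gsta4 (adjusted p = 0.00779), Mup14 (adjusted p = 0.00876), Ppara (adjusted p = 0.012), Pecam1 (adjusted p = 0.02), Emilin1 (adjusted p = 0.0324), ND4 (adjusted p = 0.0405) and Stat2 (adjusted p = 0.0411). For Ppara the log2FC were 0.20, 0.20 and 0.58 at 1.5, at 15 and at 150 mg/kg bw/d, and for Gys2, the liver glycogen synthase, 0.10, 0.92 and 0.25. For Gsta4, a glutathione S-transferase, they were 0.24, 0.86 and 0.29, and for Mup14, a major urinary protein, 1.31, 0.033 and 0.69.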

How the results depend on the processing

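Settings are named by the choice that was changed. The 61 genes higher became 37 without a filter on low values, 27 with a common total per sample, 221, 71 and 158 without the dose of 1.5, of 15 or of 150 mg/kg bw/d in the pooled mean, 150 with array quality weights, 116 without the 8 libraries, 98 with the ribosomal covariate and 21 by a Wilcoxon rank-sum test. The 61 genes lower became 153, 26 and 156 without the dose of 1.5, of 15 or of 150 mg/kg bw/d, 125 with array weights, 114 without the 8 libraries and 18 by the rank-sum test. The 12 DEGs higher became 6 with a pseudocount of 5, 7 with a common total, 30 and 23 without 1.5 or 15 mg/kg bw/d and 4 by the rank-sum test, and the 5 DEGs lower became 1, 8, 19 and 14 (pseudocount of 5, common total, without 1.5, without 150 mg/kg bw/d), 8 with array weights, 10 without the 8 libraries and 1 by the rank-sum test. The 20 genes higher at every dose became 12 with a common total, 96, 51 and 74 without the dose of 1.5, of 15 or of 150 mg/kg bw/d, 47 with array weights, 58 without the 8 libraries, 39 without the 5 of low correlation and 50 with the covariate. The 22 lower became 45 with a common total, 93 and 100 without 1.5 or 150 mg/kg bw/d, 55 with array weights, 59 without the 8 libraries and 43 with the covariate. Without a dose in the mean, the rule asked for 2 doses instead of 3. The intersection-union test, which called 0 rows, called 11 without 150 mg/kg bw/d and 1 with array weights. The 3162 rows with differing doses became 1516 without the 8 libraries, 1936 without the 5 and 1368 with the covariate. The cause of these changes was not tested. The share of higher calls, 50% of 122, was 24.5% of 110 with a common total (27 higher, 83 lower) and 36.2% of 130 with quantile normalization (47 higher, 83 lower), and the common total moved the median of all rows to -0.04. Without 1 mouse, the counts ran from 35 (without control replicate 8) to 90 (without replicate 7 of 15 mg/kg bw/d) genes higher, 38 (without control replicate 12, and 40 without control replicate 2 or 6) to 73 lower, 8 to 14 DEGs higher, 3 (without replicate 11 or 12 of 1.5 or replicate 5 of 150 mg/kg bw/d) to 8 (without replicate 7 of 15 mg/kg bw/d) DEGs lower, 15 to 32 higher (without replicate 7 of 15 mg/kg bw/d) and 18 to 32 lower at every dose, 0 to 0 by the intersection-union test, and 2701 to 3407 rows with differing doses. The replicate number as a block gave 46 higher and 39 lower, 10 and 6 DEGs, and 18 and 19 at every dose. The numbers do not pair mice: 79 same-numbered pairs had a mean correlation of -0.0025 (-0.359 to 0.243), with 12.7% above 0.1. Of the 42 genes, 26 were called by the rank-sum test, 27 without 15 mg/kg bw/d and between 34 and 42 in the other settings that tested all of them, and all kept their sign. 2 marker genes with values near 0 changed sign: Tnnt3, a muscle gene (log2FC 0.051), was at -0.0093 with a pseudocount of 5, -0.31 without 15 mg/kg bw/d and -0.13 to 0.47 without 1 mouse (below 0 in 2 of 54 such fits), and Cela1, a pancreatic gene (0.019), at -0.028 with a common total, -0.084 and -0.023 without 1.5 or 15 mg/kg bw/d and -0.041 to 0.073 without 1 mouse (below 0 in 8 of 54). The table keeps no depth, so that the counting error of low genes is unknown, and with control means under 5 for 6 of the 42 genes their values move in whole steps.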

Other observations

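Some called genes outside the lists are given here, chosen after their values were seen. A catalytic and a regulatory subunit of the phosphatase calcineurin were called in opposite directions, Ppp3ca higher (0.20, adjusted p = 0.0123) and Ppp3r1 lower (-0.37, adjusted p = 0.0218). Crtc2, a coactivator of CREB that calcineurin dephosphorylates, was lower (-0.31, adjusted p = 0.045). By dose, Ppp3ca had 0.32, 0.21 and 0.073, Ppp3r1 -0.35, -0.64 and -0.11 and Crtc2 -0.32, -0.43 and -0.19 at 1.5, at 15 and at 150 mg/kg bw/d. Doses differed for Ppp3ca (F test, adjusted p = 0.00243) and Ppp3r1 (adjusted p = 0.000607). None of these 3 genes was moved at every dose, and without the 8 libraries the adjusted p of Crtc2 was 0.0619.

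Gc, the vitamin D-binding protein, was higher (0.16, adjusted p = 0.0298), and so was the protease inhibitor Pzp (0.25, adjusted p = 0.0321), both with the largest difference at 15 mg/kg bw/d (0.13, 0.30 and 0.048, and 0.15, 0.50 and 0.091). Blvra, biliverdin reductase, was higher (0.37, adjusted p = 0.0115) with 0.55, 0.46 and 0.11. Phyh, the peroxisomal hydroxylase of phytanic acid, was higher (0.30, adjusted p = 0.0466) with 0.12, 0.57 and 0.22. The adjusted p of Pzp was 0.0572 without the 5 libraries of low correlation, and that of Phyh 0.0595 with the ribosomal covariate. None of the 28 tested major urinary protein genes was called, a count close to the 1.07% called over all rows. They had a median pooled log2FC of 0.29, with 26 above 0, against 5745 of all 11431 rows. By dose the medians were 0.69, 0.047 and 0.34. Without the 8 libraries their pooled median was 0.56. The 30 tested genes of the unfolded protein response had 25 below 0, against 5686 of all 11431 rows. Their median was -0.084, or -0.053 without the 8 libraries. The 1 called gene of that list (3.33%) was Hsd17b11, a short-chain dehydrogenase of lipid droplets, which was higher.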
